A study of Homo sapiens with 12 samples.

Results

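The genes described here are those that were near-silent in TOV-112D cells given only the vehicle and were counted clearly after UCI-1014. They were chosen from the deposited gene counts summed by gene symbol. A gene was taken where the DMSO libraries together held at most 10 counts and each UCI-1014 library held at least 20. Symbols beginning with HSP, DNAJ, MT1, FOS, EGR, NR4A, HIST or ZNF were left out, which removed EGR2 and HSPA7. This gave 21 of the 28439 symbols in the table. For comparison, 14380 symbols had a DMSO sum of at most 10, and 12403 symbols had at least 20 counts in each UCI-1014 library. Because the DMSO and UCI-1014 counts chose the genes, the difference between these groups is given as a description, without a test.

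RNA-seq was performed on 12 libraries of 2 human cell lines. TOV-112D is an ovarian adenocarcinoma line that carries p53-R175H, a structurally destabilized p53 mutant, and this mutation is shared by all of its groups. The TOV-112D groups received, for 3 h, DMSO as vehicle, UCI-1001, a compound studied as an activator of mutant p53, or UCI-1014, a related compound (n = 2 libraries each). Saos-2 is an osteosarcoma line that lacks functional p53. The parental p53-null cells and cells engineered to express wild-type p53 from a doxycycline-inducible construct (p53-WT) were each labelled with 16 h of induction (n = 3 libraries each). No dose of UCI-1014 for these libraries was found in the sources used here, so values for UCI-1001 and UCI-1014 are set side by side, with no ratio or test between them. Both compounds share the same DMSO libraries. The labels do not say whether replicates came from separate cultures, so p-values measure only the spread between these libraries.

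A gene that is nearly silent in a culture can become visible in RNA-seq after a short treatment when its transcription is switched on. Immediate early genes respond in this way within minutes to hours and need no new protein synthesis, and heat shock and other stress genes respond on a similar time scale. Wild-type p53 is a transcription factor that induces its targets through binding sites near or within them, and GDF15, a stress-induced ligand of the TGF-beta family, is among its known targets.

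Library totals were 17762027 to 20717898 counts in TOV-112D and 19593655 to 24629558 in Saos-2. CDKN1A, a p53 target that encodes the cell cycle inhibitor p21, had 1200 to 1718 counts in the p53-null libraries and 159121 to 204034 in the p53-WT libraries. Replicate 1 of both Saos-2 groups stood apart: its chi-square per degree of freedom against the other replicates of its group was 24.6 to 41.3, whereas replicates 2 and 3 gave 3.95 in p53-null and 3.17 in p53-WT. The replicate pairs of TOV-112D gave 2.11 to 3.91. Epithelial and ovarian markers were low in TOV-112D, with 4.34 to 6.71 CPM (counts scaled to the library total) summed over 10 genes, and KRT18 was at 0 in every TOV-112D library. In Saos-2 the same list reached 780 to 1003 CPM, mostly keratins 8 and 18. The osteoblast markers summed to 27.6 to 46.0 CPM in Saos-2, mostly SPP1 and RUNX2, with SP7 at 0. The same list gave 55.5 to 62.5 CPM in TOV-112D, mostly COL1A1. The immune markers summed to 1.85 to 3.49 CPM in TOV-112D, with CD3E at 0 and PTPRC at 25 to 57 counts, and the endothelial markers to 0.253 to 1.13 CPM. The part of other cells in the results below was not tested. In bulk samples, fewer cells that express a gene and less RNA per cell cannot be told apart.

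All 21 genes are annotated as protein coding. Added together, their counts were 54 and 37 in the DMSO libraries, 266 and 309 with UCI-1001, and 840 and 759 with UCI-1014. The genes thus took 0.00473% and 0.00366% of all counts in the UCI-1014 libraries, and single counts ranged from 20 to 78 per library. These are low counts, so counting error is wide. The ratios below divide counts per total count of each group, and their 95% intervals are exact (Clopper-Pearson) and cover counting error only. The rule alone places both UCI-1014 libraries above both DMSO libraries in each of the 21 genes. It thereby sets the UCI-1014 to DMSO ratios above 1 and can inflate them, so their intervals are no test of a rise. The low DMSO counts that the rule demands can inflate the UCI-1001 to DMSO ratios too. Where both DMSO libraries were at 0, the ratio is a lower bound against a floor of 3 counts over the group, which takes the compound's count as exact. The lower end of the 95% interval, which does not, is smaller and is given beside it. Across the 17 genes with a DMSO count, the UCI-1014 to DMSO ratio ran from 4.47 for SLC12A8 to 117 for CHRNA2, with a median of 13.5. The other 4 genes, MUC5AC, CD300LB, PHF24 and ANKRD1, had no count in either DMSO library. Relative to the library total, 16 of the 21 genes were higher in UCI-1014 replicate 1 than in replicate 2.

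**Figure D1:**
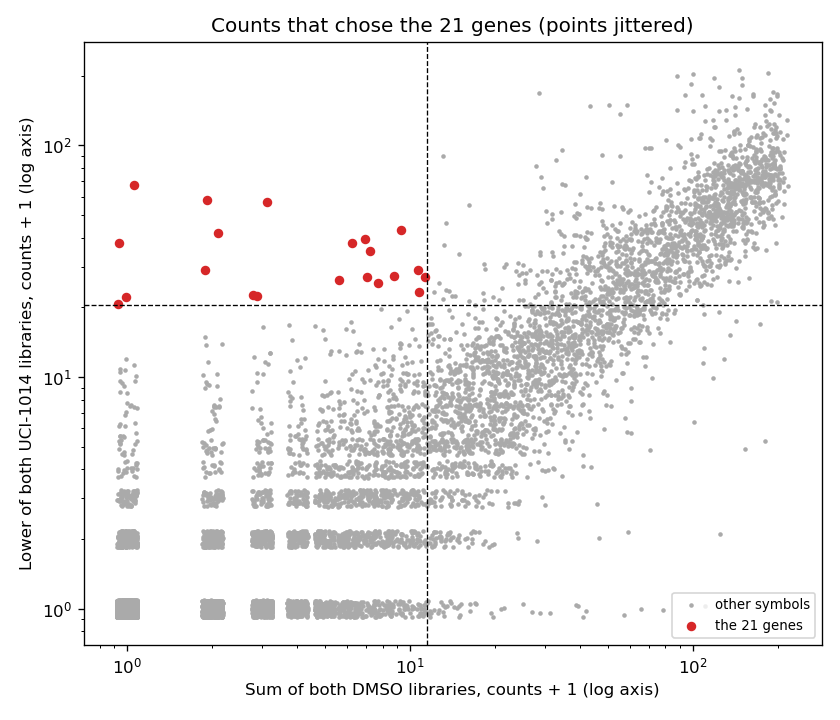
Each point is a gene symbol, placed by the sum of both DMSO libraries (x axis, counts + 1, log scale) and the lower of the UCI-1014 libraries (y axis, counts + 1, log scale), with a small jitter, up to 200 counts on each axis (the other 10342 symbols, and those with the excluded beginnings, are not drawn). Dashed lines mark the limits of at most 10 and at least 20 counts, and the 21 chosen genes (red) fill the upper left corner.

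Values near the limits show how sharp the choice was. Just inside the DMSO limit lay SLC12A8, TEX19 and WNT6, each with a sum of 10, and CDS1 with 9. Among the genes just outside it were MPZL3 and RAET1K with 11, and ADM2, EBLN2, OR8B8 and SCHIP1 with 12. Of these, ADM2 had 47 counts in its lower UCI-1014 library and the others 21 to 26. Just inside the UCI-1014 limit lay GPR183 with 20 counts in its lower library and ANKRD1 and PHF24 with 21, and just outside lay C2CD4A and EPAS1 with 18. The choice was repeated on 1 replicate number at a time, with a DMSO count of at most 5 and a UCI-1014 count of at least 20. Replicate 1 alone chose 35 genes. In replicate 2, which that choice did not use, 32 of them had more counts with UCI-1014 than with DMSO (median 24 against 3), and 19 met both limits. Replicate 2 alone chose 41 genes, of which 39 had more counts with UCI-1014 in replicate 1 (median 26 against 5) and 19 met both limits. No share over all genes was computed for these counts, so they describe the choice and do not test it.

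Sequence around the start of the genes was examined because genes counted after the same treatment may hold the same short motifs there. RefSeq promoter windows (GRCh38.p14, 250 bases before to 50 after the annotated start) matched 15 of the 21 genes by symbol. CRYAB, EID3, KRTAP5-2, MUC5AC and TEX19 had no entry, and CHRNA2 was left out of the search. ANKRD1 was the only gene of the 15 with both a heat shock element core and an AP-1 site, the binding site of FOS and JUN proteins, and PTAFR held an AP-1 site at position -51 relative to the start. The windows of CD300LB, GDF15 and GCNA each held a TATA box at position -29, the usual distance of this element from the start. The windows below are printed 5′ to 3′ on the strand of the gene, whole for ANKRD1 and PTAFR and as 100 bases around the TATA box for the others. Capitals mark the heat shock element core and the AP-1 site in ANKRD1, the AP-1 site in PTAFR, and the TATA box in the others. ANKRD1 lies on the minus strand at chr10:90921038-90921337, PTAFR on the minus strand at chr1:28193807-28194106, CD300LB on the minus strand at chr17:74531456-74531555, GDF15 on the plus strand at chr19:18386078-18386177 and GCNA on the plus strand at chrX:71578357-71578456.
ANKRD1: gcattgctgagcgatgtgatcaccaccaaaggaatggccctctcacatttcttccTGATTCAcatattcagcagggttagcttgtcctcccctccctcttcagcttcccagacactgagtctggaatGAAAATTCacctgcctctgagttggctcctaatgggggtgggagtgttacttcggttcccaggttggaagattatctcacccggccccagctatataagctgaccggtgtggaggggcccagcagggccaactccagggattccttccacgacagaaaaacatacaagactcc
PTAFR: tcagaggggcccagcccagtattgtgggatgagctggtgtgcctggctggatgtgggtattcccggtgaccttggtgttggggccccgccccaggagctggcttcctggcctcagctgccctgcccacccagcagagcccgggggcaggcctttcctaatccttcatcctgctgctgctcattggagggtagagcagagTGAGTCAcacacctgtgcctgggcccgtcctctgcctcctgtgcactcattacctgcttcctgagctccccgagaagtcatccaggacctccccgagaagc
CD300LB: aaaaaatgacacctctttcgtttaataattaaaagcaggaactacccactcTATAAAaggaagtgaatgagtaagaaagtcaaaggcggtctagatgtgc
GDF15: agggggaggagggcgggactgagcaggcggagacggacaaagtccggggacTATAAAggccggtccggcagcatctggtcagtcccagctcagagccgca
GCNA: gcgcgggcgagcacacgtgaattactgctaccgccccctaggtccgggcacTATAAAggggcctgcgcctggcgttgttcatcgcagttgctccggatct

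Motifs were searched on both strands. Their shares are given beside those in the windows of all 27305 genes with an entry outside chromosome 8. CHRNA2 lies on that chromosome, so the search could not include it. The TATA box (TATAAA) was in 5 of the 15 genes, CD300LB, GCNA, GDF15, GPR183 and PHF24, and in 14% of all genes. The heat shock element core GAANNTTC was in ANKRD1 and GAL3ST1 (8.21% of all genes), and its inverted form TTCNNGAA was in none of the 15 (9.46%). The AP-1 site (TGANTCA) was in ANKRD1 and PTAFR (9.37%). The antioxidant response element core (TGACNNNGC), which can overlap an AP-1 site, was in CD300LB and GPR183 (16.1%). The metal response element core (TGCNCNC) was in 11 of the 15, a motif so short that it was also in 59.4% of all genes. A CArG box was in GPR183 (1.60%) and an NF-kB site in INHBB (7.09%). Neither the CRE (TGACGTCA, 2.25%) nor the p53 half-site (8.06%) was in any of the 15 windows. These are matches of letters in a short window and describe no binding.

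4 of the genes encode secreted proteins. MUC5AC, a gel-forming mucin of airway and stomach, had 0 and 0 counts with DMSO, 8 and 8 with UCI-1001, and 74 and 66 with UCI-1014. INHBB, the beta B subunit of activins and inhibins, had 0 and 1 counts with DMSO, 6 and 4 with UCI-1001, and 39 and 40 with UCI-1014. In both genes the UCI-1001 libraries lay above both DMSO libraries but held at most 8 counts. The UCI-1014 level was at least 44.3-fold that of DMSO for MUC5AC (lower end of the interval 35.6) and 75.1-fold for INHBB (95% interval 13.1 to 3002). GDF15 had 5 and 3 counts with DMSO, 12 and 10 with UCI-1001, and 32 and 27 with UCI-1014 (ratio 7.01 to DMSO, 3.33 to 17.0). WNT6, a WNT ligand, had 5 and 5 counts with DMSO, 10 and 16 with UCI-1001, and 28 and 24 with UCI-1014 (4.94, 2.48 to 10.9). GDF15 and WNT6 were thus not silent with DMSO and were separated from it by smaller ratios.

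Receptors of the cell surface formed a second group. CHRNA2, the alpha 2 subunit of nicotinic acetylcholine receptors, had 1 and 0 counts with DMSO, 32 and 56 with UCI-1001, and 68 and 55 with UCI-1014. Its ratio to DMSO was 82.0 with UCI-1001 (14.3 to 3277) and 117 with UCI-1014 (20.6 to 4653). PTAFR, the receptor of platelet-activating factor, had 3 and 3 counts with DMSO, 23 and 31 with UCI-1001, and 40 and 51 with UCI-1014. CD300LB, an activating receptor of myeloid cells, had 0 and 0 counts with DMSO, 10 and 26 with UCI-1001, and 54 and 38 with UCI-1014. The UCI-1001 libraries of both genes lay above both DMSO libraries, at 8.39-fold DMSO (3.61 to 23.9) for PTAFR and at least 11.2-fold for CD300LB (lower end of the interval 8.64). With UCI-1014 the ratios were 14.4 (6.37 to 40.3) and at least 29.1 (lower end 23.2). GPR183, an oxysterol receptor that guides B cells, had 1 and 1 counts with DMSO, 3 and 4 with UCI-1001, and 20 and 20 with UCI-1014 (19.0, 4.93 to 162).

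Nuclear and signalling proteins were the next group. KLF4, a zinc finger transcription factor and immediate early gene, had 1 and 1 counts with DMSO, 32 and 37 with UCI-1001, and 78 and 58 with UCI-1014. Its ratio to DMSO was 32.2 with UCI-1001 (8.57 to 271) and 64.6 with UCI-1014 (17.5 to 539), and both UCI-1001 libraries lay above both DMSO libraries. ANKRD1, an ankyrin repeat protein of muscle that also acts in the nucleus, had 0 and 0 counts with DMSO, 5 and 4 with UCI-1001, and 41 and 21 with UCI-1014. It differed most between the UCI-1014 libraries, by a factor of 2.28 per total count. PHF24, a protein with a PHD finger, had 0 and 0 counts with DMSO, 1 and 3 with UCI-1001, and 21 and 23 with UCI-1014, the lowest UCI-1014 sum but that of GPR183. PELI2, a Pellino ubiquitin ligase of Toll-like receptor signalling, had 1 and 0 counts with DMSO, 9 and 11 with UCI-1001, and 26 and 36 with UCI-1014 (58.9, 10.2 to 2364).

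EID3, a subunit of the SMC5/6 complex that maintains chromosomes, had 2 and 0 counts with DMSO, 4 and 5 with UCI-1001, and 23 and 36 with UCI-1014 (28.0, 7.42 to 237). It is a gene of 1 exon (1467 bases) that lies inside TXNRD1 on the same strand, without overlap of annotated exons. TXNRD1, which encodes a thioredoxin reductase, had 5291 and 4960 counts with DMSO, 7440 and 8037 with UCI-1001, and 12903 and 14938 with UCI-1014. It rose with UCI-1014 by 1.50 on the log2 scale (SE 0.043, edgeR quasi-likelihood test, Benjamini-Hochberg adjusted p = 1.83e-12). Reads from unspliced TXNRD1 RNA that fall in EID3 cannot be told apart from EID3 reads in these counts.

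Enzymes and a transporter made up a further group. CDS1, which makes CDP-diacylglycerol for phosphoinositide synthesis, had 5 and 4 counts with DMSO, 12 and 19 with UCI-1001, and 41 and 61 with UCI-1014 (10.8, 5.46 to 24.2). GAL3ST1, the sulfotransferase that makes the myelin lipid sulfatide, had 2 and 3 counts with DMSO, 35 and 16 with UCI-1001, and 50 and 36 with UCI-1014 (16.3, 6.74 to 51.6). SLC12A8, a member of the cation-chloride cotransporter family, had 7 and 3 counts with DMSO, 5 and 1 with UCI-1001, and 21 and 26 with UCI-1014. It was the only one of the 21 genes whose UCI-1001 counts were not above its DMSO counts, with a ratio of 0.559 (0.167 to 1.70), and its UCI-1014 ratio was also the lowest (4.47, 2.23 to 9.91). Its counts were spread over 10 transcripts, the leading one holding 28.7%.

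The remaining genes were a chaperone and genes known from specialized tissues. CRYAB, the small heat shock protein alpha B-crystallin of lens and muscle, had 4 and 2 counts with DMSO, 17 and 7 with UCI-1001, and 51 and 34 with UCI-1014 (13.5, 5.94 to 37.7). Exons of HSPB2 overlap it on the opposite strand, and HSPB2 had at most 2 counts in any library. TEX19, a germ cell and placental protein, had 5 and 5 counts with DMSO, 17 and 21 with UCI-1001, and 34 and 30 with UCI-1014 (6.08, 3.10 to 13.3). GCNA, an acidic nuclear protein of germ cells, had 4 and 3 counts with DMSO, 10 and 11 with UCI-1001, and 30 and 25 with UCI-1014 (7.47, 3.39 to 19.4). In TEX19 and GCNA both UCI-1001 libraries lay above both DMSO libraries, as in every other of the chosen genes but SLC12A8. RFPL2, a ret finger protein-like gene, had 2 and 3 counts with DMSO, 6 and 10 with UCI-1001, and 36 and 25 with UCI-1014 (11.6, 4.71 to 37.0). KRTAP5-2, a keratin-associated protein of hair, had 6 and 0 counts with DMSO, 9 and 9 with UCI-1001, and 33 and 27 with UCI-1014 (9.50, 4.12 to 26.9). MUC5AC and KRTAP5-2 stand for 2 and 3 identifiers in the table with equal counts, and KRTAP5-2 belongs to a family of closely similar genes, so its counts are uncertain.

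**Figure D2:**
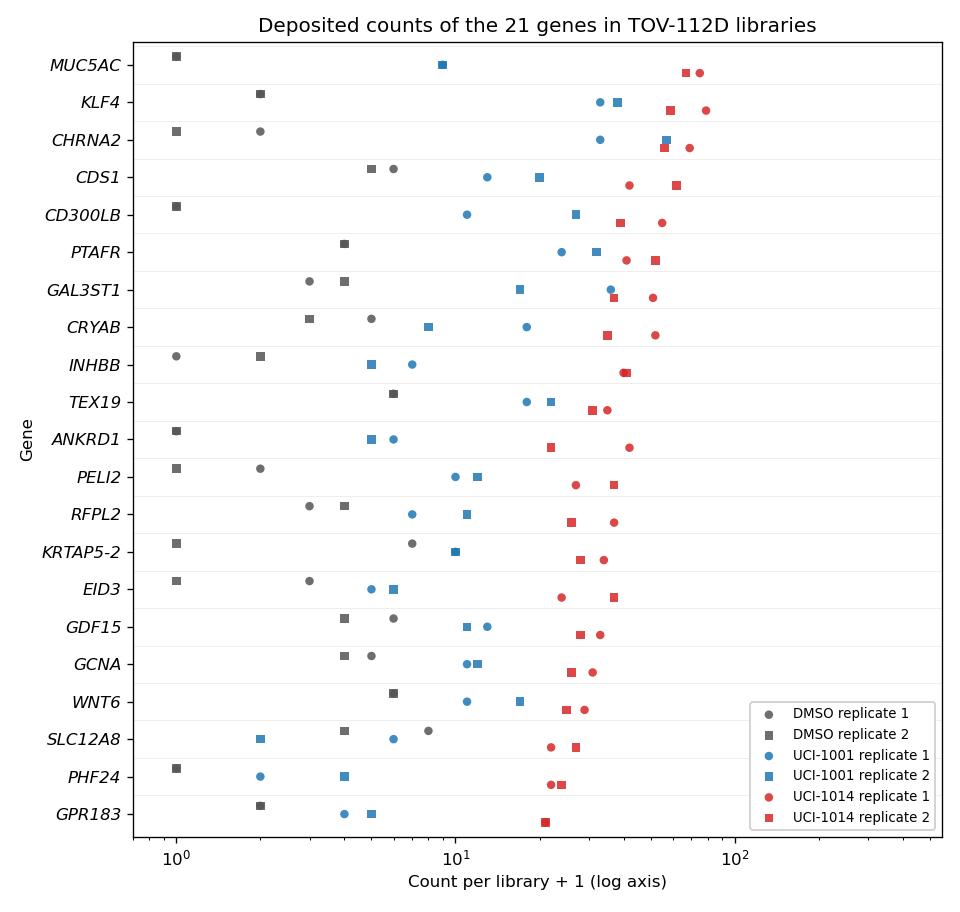
Counts of the 21 genes in the 6 TOV-112D libraries (x axis, counts + 1, log scale; 1 row per gene), coloured by treatment, with circles for replicate 1 and squares for replicate 2. UCI-1014 points lie at 20 counts or more by the rule, and UCI-1001 points lie above both DMSO points in 20 genes, all but SLC12A8 (26% of all genes tested, relative to library totals).

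With UCI-1001, both libraries were above both DMSO libraries in 20 of the 21 genes, relative to library totals. The same held for 26% of all 14174 genes tested. KLF4, CHRNA2 and PTAFR had at least 20 counts in each UCI-1001 library, and 15 genes had a UCI-1001 sum above 10. The ratio of UCI-1001 to DMSO had a median of 3.54 over the 17 genes with a DMSO count. Its 95% counting interval covered 1 in 4 of the 21 genes, EID3, GPR183, PHF24 and SLC12A8, and lay above 1 in the other 17. The DMSO libraries were chosen to be low in these genes, so nothing is read from these counts and ratios, and no test of the 21 genes is given.

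**Figure D3:**
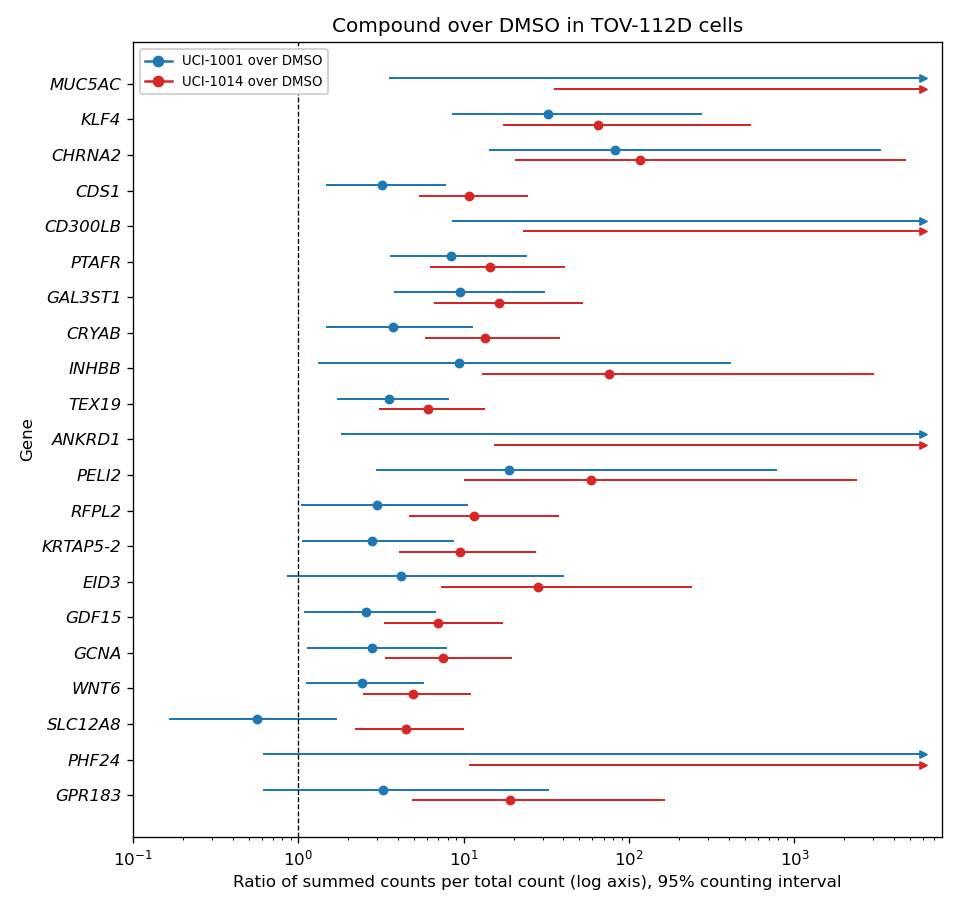
Ratio of summed counts per total count for UCI-1001 over DMSO (blue) and UCI-1014 over DMSO (red), with 95% counting intervals, on a log axis. Arrows mark the 4 genes with no DMSO count, whose lines start at the lower end of the interval and not at the floor-based bound, and the dashed line marks a ratio of 1.

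Levels between genes were compared per transcript length, in the TPM deposited for each library. With UCI-1014, CRYAB had the highest level, 7.10 and 4.49 TPM, followed by GAL3ST1 with 4.56 and 1.95 and GDF15 with 3.50 and 2.74. The libraries of GAL3ST1 overlapped those of both others. The lowest levels were those of PELI2 (mean 0.527 TPM), PHF24 (0.468 TPM) and MUC5AC (0.171 TPM, in 1 of its 2 identifiers). MUC5AC, whose transcript is 17448 bases long, had the highest sum of UCI-1014 counts with both identifiers added together (140, against 136 for KLF4), although KLF4 was higher in replicate 1. The genes were also short: the median annotated length was 14639 bases (1118 to 183711), against 34202 bases for the other 12358 annotated symbols with at least 20 counts in each UCI-1014 library. The median number of exons in the longest transcript was 5 against 10. These figures describe the lists and were not tested.

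The lists of stress and signalling genes hold 3 of the 21, KLF4 among the immediate early genes, CRYAB among the heat shock chaperones and GDF15 among the growth factors. Over all genes, 23.7% were called higher with UCI-1014 and the median log2 change was -0.02. Leaving the 21 genes out, 22 of 22 tested heat shock chaperones were higher with UCI-1014 (median log2 change 2.35), as were 24 of 26 immediate early genes (2.31), 9 of 9 genes of the integrated stress response (2.98), 8 of 9 genes of the NRF2 oxidative stress response (1.50), 8 of 12 growth factors and peptide ligands (0.87) and 5 of 6 cytokines and NF-kB feedback genes (1.27). Among these, HMOX1, heme oxygenase 1, rose from 663 and 636 counts to 20585 and 23298 (log2 change 5.14, SE 0.074, edgeR adjusted p = 1.22e-15). ATF3, a stress-induced transcription factor, rose from 34 and 26 counts to 1560 and 1471 (5.72, SE 0.20, edgeR adjusted p = 1.75e-11). PGF, placental growth factor, rose from 20 and 17 counts to 217 and 205 (3.57, SE 0.25, edgeR adjusted p = 3.15e-08). Of the p53 targets, 12 of 27 were higher and 4 lower (median 0.05). The 4 activity-regulated neuronal genes called higher were of 6 tested (median 0.65), with 1 lower, and 0 of 3 metallothionein and zinc export genes were higher and 2 lower (median -0.89). Of 14 testis and germ cell genes only 1 was tested, which was not called, and none of the 9 epidermal genes was tested. The cytokine and NF-kB feedback list holds 25 genes, of which only 6 were tested, and the growth factor list 20. Some genes stand on more than 1 list, such as ATF3 among the immediate early and the integrated stress response genes.

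With UCI-1001, 9.39% of all genes were called higher and 6.36% lower. On the same lists 21 of 22 heat shock chaperones (median log2 change 1.19), 22 of 26 immediate early genes (1.28), 9 of 9 integrated stress response genes (1.46) and 7 of 9 NRF2 genes (0.51) were higher. The other lists gave higher calls for growth factors and peptide ligands (6 of 12, median 0.29), cytokines and NF-kB feedback genes (2 of 6, 0.31), neuronal genes (2 of 6, 0.11), metallothionein and zinc export genes (1 of 3, -0.03) and p53 targets (6 of 27, 0.0041). A single gene of these lists was called lower, a p53 target, and the 1 testis gene tested was not called.

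The Saos-2 libraries played no part in choosing the genes, and p53-WT was compared with p53-null there. 12 of the 21 genes had enough counts for edgeR's test, and 6 were higher and 4 lower with p53-WT, with GCNA and PELI2 not called. CRYAB, MUC5AC and SLC12A8 passed the filter on low counts only through the p53-WT libraries, and TEX19 only through the p53-null libraries. For these genes the group that let them pass is the group where they were higher, so no p-value is given for them. The tally therefore describes the genes that passed and not all 21. Over all 14272 genes tested, 33.5% were called higher and 33% lower, so a large share of all genes differed between these lines. How often the groups did not overlap over all genes was not computed, so non-overlap named below sets no gene apart. The other 9 genes, CD300LB, CHRNA2, GAL3ST1, GPR183, INHBB, KRTAP5-2, PHF24, RFPL2 and WNT6, were not tested. In p53-null cells 10 of the 21 genes had at most 10 counts over the 3 libraries, and 7 had at most 10 in each Saos-2 group. The share of all symbols with such low counts in Saos-2 was not computed, so low counts there set none of the 21 apart. Of the listed p53 targets, none of which is among the 21, 28 of 28 tested were higher (median log2 change 3.10).

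GDF15 had 20, 14 and 17 counts in the p53-null libraries and 5593, 3898 and 4531 in the p53-WT libraries. Its mean, scaled with TMM, was 0.777 ± 0.132 CPM against 214 ± 29.5 CPM (SD, n = 3), a log2 change of 8.09 (SE 0.19, edgeR quasi-likelihood test, adjusted p = 3.13e-10). This was the largest difference of the 21 that could be given as a ratio of counts. CRYAB had 0 counts in each p53-null library and 111, 77 and 81 in the p53-WT libraries. This was 81.0-fold higher against a floor of 3 counts over the group, which takes the p53-WT count as exact. MUC5AC had 0 counts in each p53-null library and 16, 18 and 18 in the p53-WT libraries, 15.7-fold higher against the same floor. No interval was computed for either value. In these 3 genes the groups lay far apart.

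CDS1 had 19, 23 and 21 counts in p53-null and 263, 317 and 332 in p53-WT, a log2 change of 3.86 (SE 0.19, edgeR adjusted p = 2.08e-08). PTAFR had 10, 10 and 15 counts in p53-null and 129, 85 and 125 in p53-WT, a log2 change of 3.26 (SE 0.24, edgeR adjusted p = 4.93e-07). Neither gene overlapped between the groups. SLC12A8 had 11, 6 and 4 counts in p53-null and 25, 24 and 12 in p53-WT, so its groups came within 1 count of each other. Its log2 change was 1.53 (SE 0.46). Without p53-null replicate 3 its change was 1.24 and the call was lost.

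4 genes fell with p53-WT. TEX19 had 19, 27 and 27 counts in p53-null and 7, 2 and 3 in p53-WT, a log2 change of -2.57 (SE 0.43). EID3 had 139, 134 and 140 counts in p53-null and 49, 39 and 44 in p53-WT, a log2 change of -1.64 (SE 0.16, edgeR adjusted p = 4.29e-06). TXNRD1, in which EID3 lies, had a log2 change of -0.09 (edgeR adjusted p = 0.461). KLF4 had 305, 336 and 397 counts in p53-null and 174, 158 and 173 in p53-WT, a log2 change of -1.03 (SE 0.13, edgeR adjusted p = 3.03e-05). ANKRD1 had 527, 447 and 543 counts in p53-null and 257, 264 and 273 in p53-WT, a log2 change of -0.92 (SE 0.12, edgeR adjusted p = 3.70e-05). None of the 4 overlapped between the groups. KLF4 and ANKRD1, at 1 or 0 counts in each DMSO library of TOV-112D, thus had at least 158 counts in every Saos-2 library.

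GCNA had 36, 30 and 24 counts in p53-null and 39, 31 and 27 in p53-WT, overlapping groups with a log2 change of 0.11 (SE 0.27, edgeR adjusted p = 0.733). PELI2 had 10, 9 and 15 counts in p53-null and 9, 10 and 11 in p53-WT, which also overlapped (-0.17, SE 0.36, edgeR adjusted p = 0.694). CD300LB and KRTAP5-2 were at 0 in all 6 Saos-2 libraries, where 3 counts over a group are the limit that a count of 0 allows. CHRNA2 had at most 1 count in any Saos-2 library and WNT6 at most 1. INHBB had 0 counts in each p53-null library and 4, 1 and 2 in p53-WT. GPR183 had 0, 2 and 1 counts in p53-null and 4, 5 and 6 in p53-WT. These 2 genes fell under the filter. Without it, edgeR's adjusted p was 0.0456 for INHBB and 0.0632 for GPR183. DESeq2 called neither gene, with an adjusted p of 0.178 for INHBB and 0.159 for GPR183. RFPL2 had 1, 7 and 3 counts in p53-null and 5, 3 and 13 in p53-WT, with overlap. GAL3ST1 and PHF24 had at most 2 counts in any Saos-2 library, so a difference in them was not detectable at this depth.

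**Figure D4:**
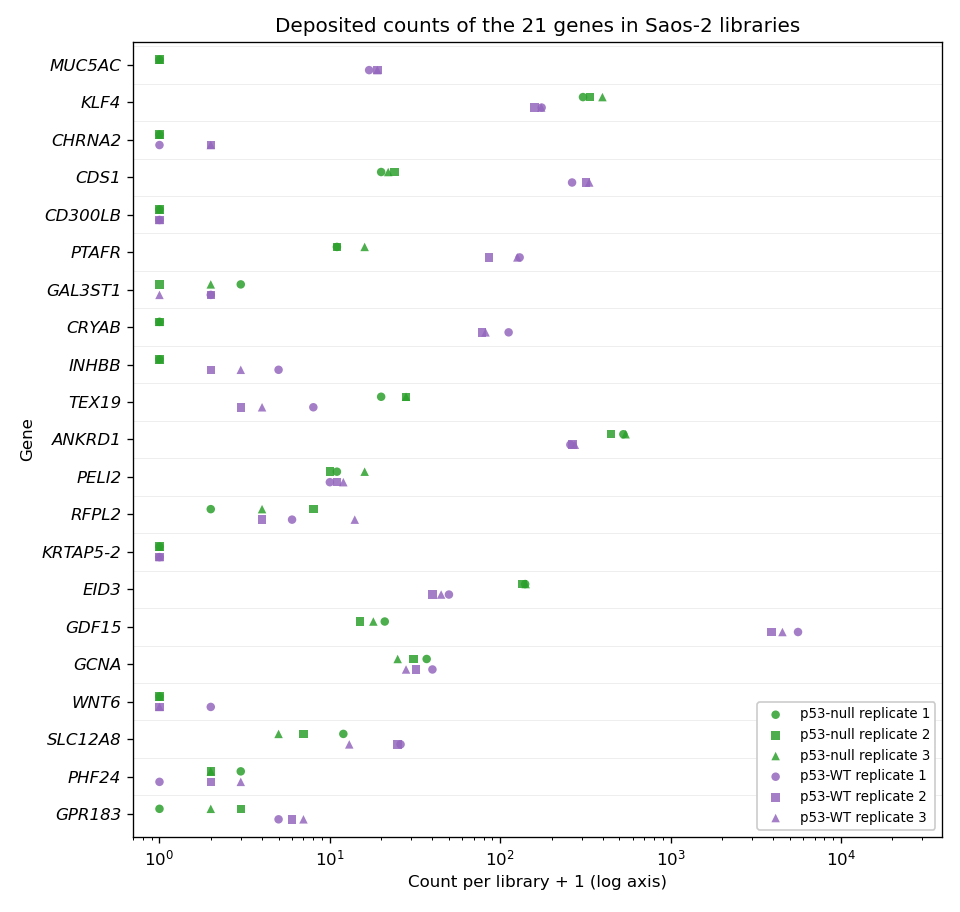
Counts of the 21 genes in the 6 Saos-2 libraries (x axis, counts + 1, log scale; 1 row per gene), with p53-null in green and p53-WT in purple and a marker shape for each replicate. GDF15 shows the widest gap, TEX19, EID3, KLF4 and ANKRD1 lie lower with p53-WT, and CD300LB and KRTAP5-2 sit at 0 in all libraries.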

How the data were processed

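The sources name kallisto 0.48.0, GRCh38 and DESeq2 1.38.3. The authors summed kallisto's estimated counts over the transcripts of each Ensembl gene, made them integers and deposited these counts without normalization for 40295 genes. The authors also deposited, per library, transcript estimated counts and TPM, used here for transcript shares and levels per length. Counts were summed by symbol (36482 rows, of which 8043 identifiers without a symbol stayed separate). They were tested with edgeR 4.0.16 in R 4.3.3 (TMM, filterByExpr, glmQLFit, glmQLFTest, Benjamini-Hochberg adjustment over all genes tested), with 1 fit per cell line and no block. CPM are counts relative to the library total scaled by TMM, and to the plain total for the marker lists. Scripts were tested on simulated data. Annotation was GENCODE release 44, in which 87.8% of identifiers were found. Members and lists were chosen with earlier results of these data known. All 21 genes are named, with the genes nearest each limit. HMOX1, ATF3 and PGF were named after their values were seen. Alternatives were DESeq2 1.42.0, other size factors, no filter, a replicate block and left-out libraries. Some results are not reported here.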

Additional observations from a re-analysis of the deposited data

How the results depend on the processing

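The size of the gene set followed its limits: 12 genes with a DMSO sum of at most 5, 42 at most 20, 90 with at least 10 counts in each UCI-1014 library and 5 with at least 40. Replicate 1 alone gave 35 genes and replicate 2 alone 41. Leaving out a single library gave 22 to 31 genes, limits set in CPM 16, 1 row per identifier 22, and keeping the excluded symbols 23. In Saos-2, between 5 and 7 of the 21 genes were called higher and 4 lower under every alternative run (5 to 6 higher on leaving out a library, and 7 without the filter on low counts, where INHBB passed). DESeq2 gave 6 higher and 4 lower, as did leaving out both replicate 1 libraries, an alternative chosen after seeing the data. The main tally includes CRYAB, MUC5AC, SLC12A8 and TEX19, which passed the filter only through the group where they were higher, so their calls are descriptions. GCNA, which was not called, ran from a log2 change of -0.046 (without p53-null replicate 3) to 0.26 on leaving out a library, and was -0.014 without p53-WT replicate 1. The call of SLC12A8 was lost in 1 alternative, MUC5AC had too few counts for a test with 1 row per identifier (5 of the 21 higher there), and 139 other gene-level values kept direction and side of the threshold. For UCI-1001 against DMSO no calls of the 21 genes are given, since the DMSO libraries chose them.

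Same-numbered Saos-2 replicates correlated at 0.139, 0.0922 and 0.0758, and not every library correlated best with its own number. With a replicate block 6 genes were higher and 4 lower in Saos-2, and the numbers were not taken as pairs. In TOV-112D the correlations of same-numbered libraries ran from -0.165 to 0.0626. Counts of 20 to 78 per library limit the precision of every UCI-1014 value, and 9 of the 21 genes had too few counts for a test in Saos-2.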

Other observations

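The excluded symbols that met the count limits are named here after their values were seen. EGR2, an immediate early transcription factor, had 8 and 1 counts with DMSO, 82 and 163 with UCI-1001, and 249 and 193 with UCI-1014. It also had 10 to 15 counts in the p53-null libraries and 536 to 601 in the p53-WT libraries. HSPA7, a close relative of HSPA6 and therefore uncertain in its counts, had 1 and 0 counts with DMSO, 134 and 126 with UCI-1001, and 295 and 242 with UCI-1014, and at most 7 in any Saos-2 library.

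With the limits turned around, at most 10 counts over both UCI-1014 libraries and at least 20 in each DMSO library, 3 symbols were found: IGKV1OR2-2, PCDHGC4 and TVP23C-CDRT4. PCDHGC4, a clustered protocadherin, had 20 and 39 counts with DMSO, 3 and 0 with UCI-1001, and 1 and 3 with UCI-1014. TVP23C-CDRT4, a readthrough of neighbouring genes, had 56 and 53 counts with DMSO, 49 and 57 with UCI-1001, and 4 and 0 with UCI-1014. Both share exons with other genes of their clusters, so their counts are uncertain.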
